A study of Mus musculus with 10 samples.

Results

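The growth hormone and insulin-like growth factor (IGF) axis was followed through 10 named genes, taken by symbol from the array annotation: the receptor and its liver product (Ghr, Igf1), the partner and binding proteins of circulating IGF-1 (Igfals, Igfbp2, Igfbp3), the IGF-1 receptor (Igf1r), the STAT5 transcription factors (Stat5a, Stat5b) and the STAT5-induced feedback inhibitors (Cish, Socs2). They were 10 of 14530 named genes tested and were read by 18 of 55681 probes, all 18 of which were well above background on all 10 arrays. The livers came from male TG221 mice, which carry a miR-221 transgene on a B6D2F2 background (the promoter driving it is not given in the sources used here). Dosing began at 4 to 6 weeks of age. The metformin plus CCl4 group held 6 mice, given carbon tetrachloride (CCl4, a hepatotoxin; 20% v/v in olive oil by gavage, 3 times a week for 14 weeks) and, from 3 weeks after its start, metformin at 300 mg/kg daily. The CCl4 group held 4 mice given the same CCl4 and no metformin. All livers were taken at 24 weeks, so the comparison asks what metformin changed on an injured, transgenic background, and mice without CCl4 were not analysed here. The labels call the tissue liver and the cell type hepatocellular carcinoma. Hepatocyte markers were bright in every array, and whether a piece was tumour or surrounding liver cannot be read from the labels.

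Growth hormone is released by the pituitary in pulses, binds its receptor on hepatocytes and acts through the kinase JAK2 on STAT5, which enters the nucleus and switches on Igf1, Igfals, Cish and Socs2. The liver is the main source of circulating IGF-1, which travels bound to IGF-binding proteins and to the acid-labile subunit encoded by Igfals, and IGF-1 feeds back on the pituitary. CIS (from Cish) and SOCS2 bind the activated growth hormone receptor and damp the signal, and their mRNAs rise soon after a growth hormone pulse.

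Levels are log2 intensities relative to the 75th percentile of the array they were measured on, so 0 is that percentile and 1 unit is a 2-fold difference. They compare one probe between arrays and not probes with each other. The unscaled 75th percentile lay between 237 and 363 intensity units, between 51.2% and 54.9% of probes were well above background, no probe reached saturation, and irregular spots, which were dropped, numbered 135 to 179 on an array. Pearson correlations over probes were 0.984 to 0.993 between arrays of the same group and 0.963 to 0.976 between arrays of different groups. All 6 metformin plus CCl4 arrays shared 1 slide and scanning session and all 4 CCl4 arrays shared another, so slide, scan and metformin cannot be told apart for any gene. Slide row 1 held all 4 CCl4 arrays and those of metformin mice 1 and 2, and row 2 held the other metformin arrays. Fitting slide row as a covariate, or row 1 alone, therefore estimates the same contrast of metformin mice 1 and 2 with the CCl4 mice.

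By limma with Benjamini-Hochberg adjustment over all features, 4 of the 10 axis genes were higher in metformin plus CCl4 livers (Cish, Igfbp2, Stat5a and Stat5b), against a background of 27.7% of named genes called higher. Igfbp3 was the 1 gene called lower, against 19.7% of named genes. Ghr, Igf1, Igfals, Igf1r and Socs2 did not pass an adjusted p of 0.05. In all, 47.4% of named genes were called in one direction or the other, so 5 calls among 10 members is close to the background. The median log2 fold change was 0.32 over the members and 0.10 over all features. Scaling to the spike-in control RNAs instead moved the median of all features to -0.45, so signs of small changes depend on the scaling. Relative to the median of all features, which either scaling leaves alike, the called members stood at 3.21 (Cish), 0.57 (Igfbp2), 0.44 (Stat5a), 0.40 (Stat5b) and -1.33 (Igfbp3). Values did not overlap between the groups for 3 of 10 members (Igfbp2, Igfbp3 and Stat5a), against 36.0% of named genes.

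**Figure D1:**
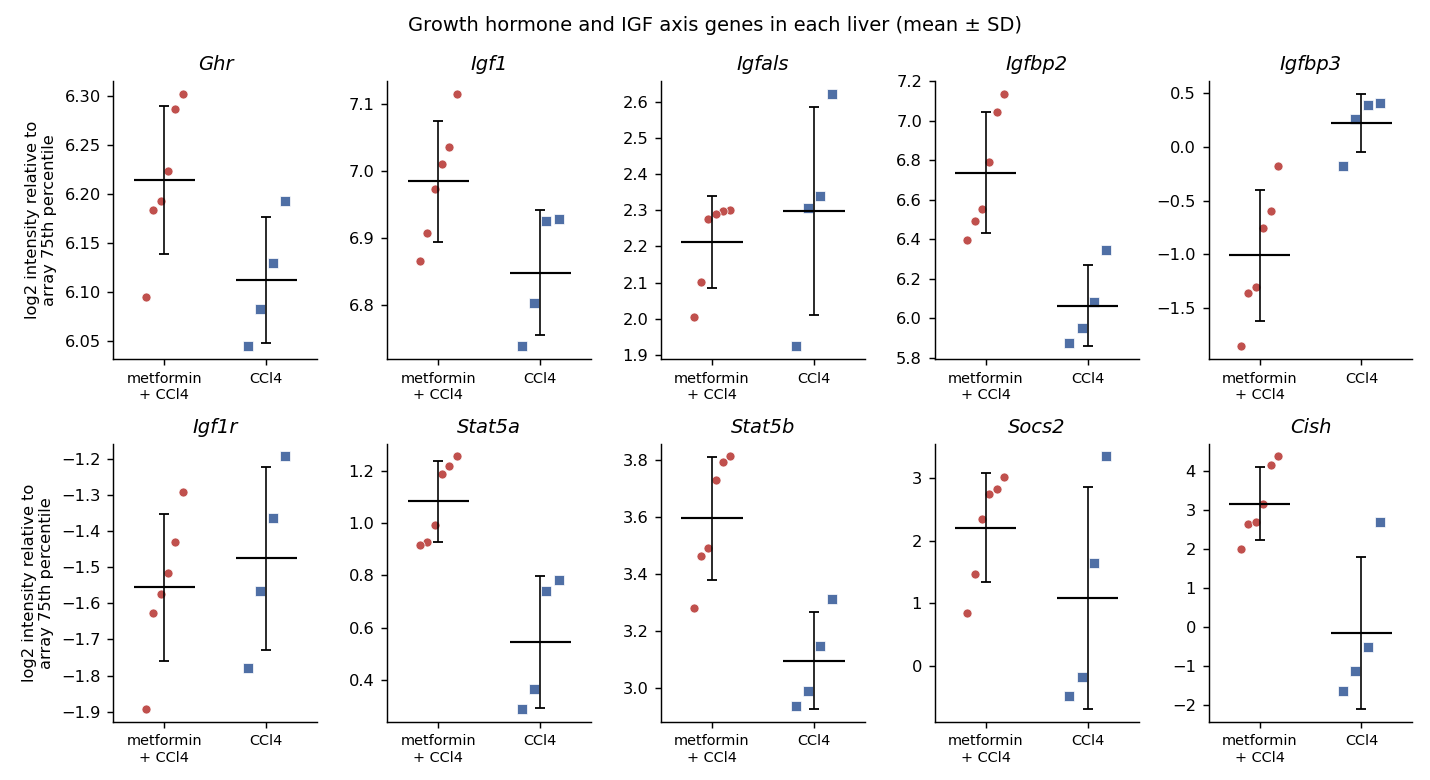
Level of each of the 10 axis genes in each mouse, as log2 intensity relative to the array's 75th percentile; points are single livers (metformin plus CCl4, n = 6; CCl4, n = 4) and bars are the mean ± SD, and each gene has its own vertical range. Cish and Socs2 spread over several log2 units, whereas Ghr and Igf1 stay in a narrow band.

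The receptor and the main liver product showed no difference that passed the test. Ghr encodes the growth hormone receptor, which in mouse is also spliced to a soluble binding protein. Its brightest probe read 6.09 at the lowest, 6.21 at the median and 6.30 at the highest in metformin plus CCl4 livers, against 6.08, 6.13, 6.04 and 6.19 in CCl4 mice 1 to 4. The groups overlapped and the difference was 0.10 ± 0.08 (log2, SE; 95% interval -0.07 to 0.27; limma adjusted p = 0.296). The other Ghr probe, annotated to a different RefSeq transcript, gave -0.15 ± 0.11 (limma adjusted p = 0.290). For the brightest Ghr probe the sign turned under quantile normalization (-0.04) and with the mean of both probes (-0.02), and scaling to the spike-in controls gave -0.45 (adjusted p = 0.0506).

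Igf1 was among the steadiest members at its brightest probe. That probe ran from 6.87 through a median of 6.99 to 7.12 in metformin plus CCl4 livers, and read 6.93, 6.74, 6.80 and 6.92 in CCl4 mice 1 to 4. CCl4 mice 1 and 4 lay within the metformin range. The difference was 0.14 ± 0.08 (log2, SE; 95% interval -0.05 to 0.32; limma adjusted p = 0.198), and it turned to -0.01 under quantile normalization and to -0.41 with spike-in scaling, neither of which was called.

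The 4 Igf1 probes did not move together. Transcripts of this gene are made from alternative first exons, by alternative splicing and with several polyadenylation sites. All 4 probes carry the same RefSeq transcript annotation, and their positions along it were not used here. Probe A_55_P2085984, the next brightest, followed the brightest, with a difference of 0.16 ± 0.08 (limma adjusted p = 0.137). Probe A_55_P2085974 was higher in metformin plus CCl4 livers, at 4.99 to 5.62 (median 5.17) against 4.44, 3.96, 4.18 and 4.50 in CCl4 mice 1 to 4, without overlap. Its difference was 0.94 ± 0.15 (limma adjusted p = 7.72e-04). Probe A_55_P2031636, the dimmest, was lower, at 1.72 to 2.57 (median 2.10) in metformin plus CCl4 livers against 2.90, 2.61, 2.85 and 3.104 in CCl4 livers, again without overlap. Its difference was -0.73 ± 0.18 (limma adjusted p = 0.00696). Among all kept probes 45.2% were called. The call of A_55_P2085974 was lost with spike-in scaling (0.39, adjusted p = 0.150), and that of A_55_P2031636 once slide row entered the fit and within slide row 1 (highest adjusted p = 0.123).

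Probe disagreement was then measured within each array, where the scaling cancels, as the log2 ratio of a probe to the brightest probe of its gene. The ratio of A_55_P2085974 to the brightest Igf1 probe lay between -1.99 and -1.49 in metformin plus CCl4 livers and between -2.78 and -2.43 in CCl4 livers, a difference of 0.80 ± 0.13 (limma adjusted p = 6.36e-04). The ratio of A_55_P2031636 lay between -5.32 and -4.34 in metformin plus CCl4 livers and between -4.12 and -3.82 in CCl4 livers, a difference of -0.87 ± 0.18 (limma adjusted p = 0.00258). For these Igf1 probes, then, unequal change held without overlap in opposite directions around a brightest probe that did not pass the test. This test was chosen after the values were seen, and 52.0% of 4410 probe pairs in 3682 genes were called by it, so unequal change between probes was common on these arrays. The ratio of the other Ghr probe differed by -0.25 ± 0.10 (limma adjusted p = 0.0506) and was called in 5 of 20 other settings. That of Socs2 probe A_55_P1992838 differed by -0.21 ± 0.08 (limma adjusted p = 0.0465), a call lost in 14 of 20. Ratios of Igf1 probe A_55_P2085984, Igfbp2 probe A_55_P2056729 and Socs2 probe A_55_P1992834 were not called. A table of the authors' processed values covers 4595 probes and 1 of the 18 member probes, A_55_P2085974, with a mean of 13.2 in metformin plus CCl4 livers and 12.4 in CCl4 livers, 0.82 log2 units apart. That table is labelled as differential expression, so its probes may have been chosen by this same contrast. Its values also come from the same arrays, so they are not separate support.

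**Figure D2:**
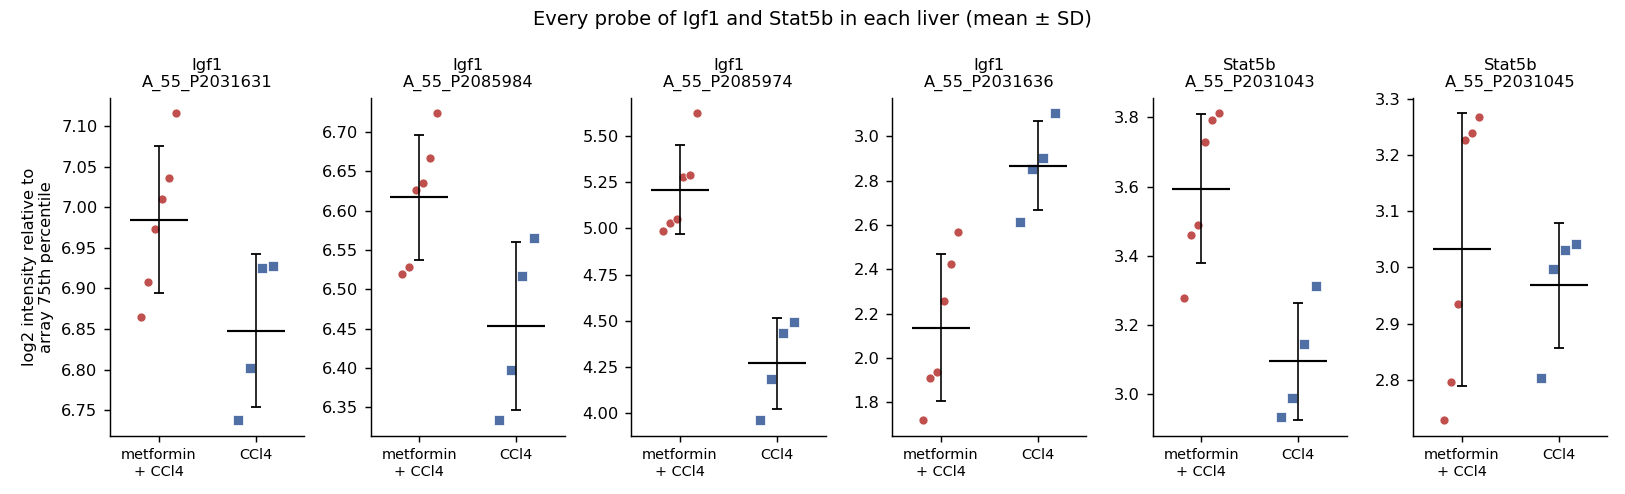
Each mouse's value at every kept Igf1 and Stat5b probe, as log2 intensity relative to the array's 75th percentile, metformin plus CCl4 (n = 6) left of CCl4 (n = 4), with bars for the mean ± SD and a separate vertical range for each probe. Igf1 probe A_55_P2085974 is higher and A_55_P2031636 lower in metformin plus CCl4 livers, and the brightest probe overlaps between the groups.

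Igfals and Igf1r also did not pass the test. Igfals encodes the acid-labile subunit that locks IGF-1 into a large circulating complex, and it read 2.01 to 2.30 (median 2.28) in metformin plus CCl4 livers against 2.31, 2.34, 1.92 and 2.62 in CCl4 mice 1 to 4. CCl4 mouse 3 was below all other mice and CCl4 mouse 4 above them. The difference was -0.09 ± 0.13 (95% interval -0.38 to 0.21; limma adjusted p = 0.620). Igf1r, the receptor through which IGF-1 signals and a gene of low expression in hepatocytes, read -1.89 to -1.29 (median -1.55) in metformin plus CCl4 livers against -1.56, -1.78, -1.19 and -1.36 in CCl4 livers. The groups overlapped over most of their range and the difference was -0.08 ± 0.14 (95% interval -0.39 to 0.23; limma adjusted p = 0.674). Spike-in scaling gave called values of -0.64 for Igfals (adjusted p = 0.0200) and -0.63 for Igf1r (adjusted p = 0.0450).

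The binding proteins moved in opposite directions. IGFBP-2 is secreted by hepatocytes and rises in fasting. At its brightest probe Igfbp2 read 6.39 to 7.14 (median 6.67) in metformin plus CCl4 livers against 5.95, 6.08, 6.34 and 5.88 in CCl4 mice 1 to 4. Every metformin plus CCl4 mouse was above every CCl4 mouse, the closest being metformin mouse 4 and CCl4 mouse 3. The mean was 6.74 ± 0.31 in metformin plus CCl4 livers (SD, n = 6) and 6.06 ± 0.21 in CCl4 livers (SD, n = 4). That is 1.59-fold, or 0.67 ± 0.17 in log2 units (95% interval 0.30 to 1.04; limma adjusted p = 0.00805). Probe A_55_P2056729 of the same gene overlapped between the groups and gave 0.54 ± 0.18 (limma adjusted p = 0.0320), a call that held in 8 of 20 other settings. It was lost without metformin mouse 2, 5 or 6 or CCl4 mouse 1 or 4 (0.45 to 0.62 leaving out single mice). Median scaling (adjusted p = 0.0726), quantile normalization (adjusted p = 0.0698), no filter on dim probes (adjusted p = 0.0658) and both slide row settings also ended it. With spike-in scaling Igfbp2 kept its sign but not its call (0.12, adjusted p = 0.675).

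Igfbp3, the main carrier of IGF-1 in serum, was lower. In rat liver it is made by the non-parenchymal cells rather than by hepatocytes. It read -1.86 to -0.18 (median -1.03) in metformin plus CCl4 livers against -0.18, 0.41, 0.39 and 0.26 in CCl4 mice 1 to 4. Metformin mouse 3 and CCl4 mouse 1 were level to 2 decimals, so the separation between the groups rests on those mice, and metformin mice spread more widely than CCl4 mice. The mean was -1.01 ± 0.61 in metformin plus CCl4 livers (SD, n = 6) and 0.22 ± 0.27 in CCl4 livers (SD, n = 4), a difference of -1.23 ± 0.30 or 2.35-fold lower (95% interval -1.89 to -0.57; limma adjusted p = 0.00679). Igfbp3 did not pass once slide row entered the fit (-1.20, adjusted p = 0.0539), but it did within slide row 1 (-1.20, adjusted p = 0.0235).

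Some markers of other liver cells were lower in metformin plus CCl4 livers, to a degree that differed between cell types, beside the 19.7% of all named genes called lower. Of 8 stellate cell and myofibroblast markers 6 were called lower and 0 higher, and their summed level was 5.82 to 10.2 in metformin plus CCl4 livers and 10.6 to 19.8 in CCl4 livers, in units of the array's 75th percentile. Of 6 endothelial markers 2 were lower (sums of 44.8 to 76.8 with metformin and 59.4 to 73.0 without), and of 7 macrophage markers 3 were lower (47.5 to 83.6 with metformin and 66.8 to 83.8 without). Of 8 hepatocyte markers 3 were lower and 0 higher (5420 to 7186 with metformin and 6631 to 8511 without), and 4 of 5 neutrophil and 0 of 4 lymphocyte markers were lower. Of 6 bile duct markers 3 were lower and 1, the chloride channel gene Cftr, was higher (0.80, limma adjusted p = 8.96e-04). Among the lower ones, Krt7 and Epcam passed the brightness filter only through the CCl4 group, so their calls are not independent of the filter. Krt7 was well above background in 4 of 6 metformin plus CCl4 livers and 4 of 4 CCl4 livers, and Epcam in 1 of 6 and 3 of 4. No list had a marker below background on all arrays. In whole tissue, fewer cells of a type and less RNA per cell cannot be told apart. The part of these markers in the Igfbp3 result was not tested.

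**Figure D3:**
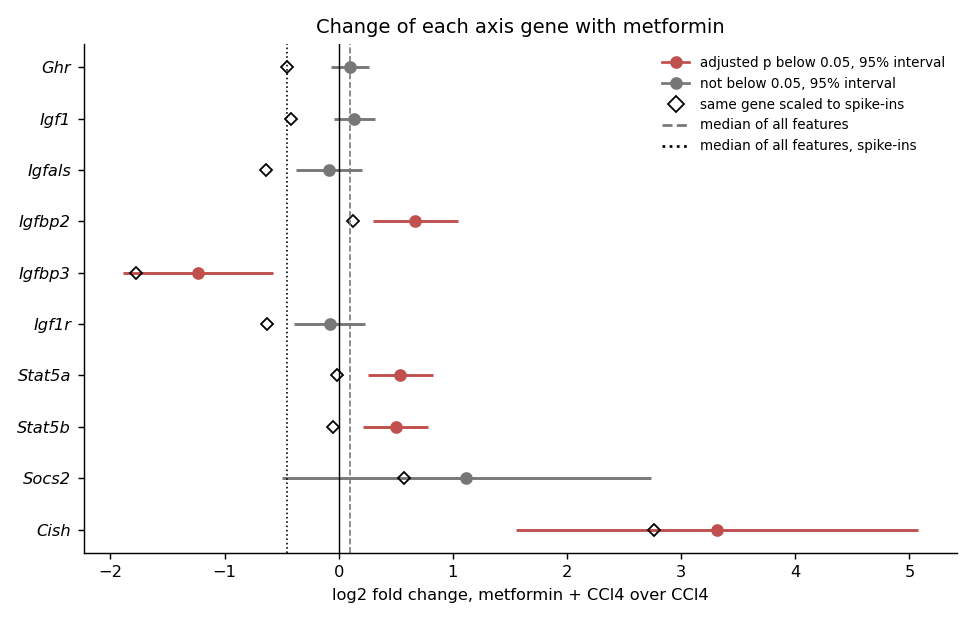
Log2 fold change, metformin plus CCl4 over CCl4, with its 95% interval for each of the 10 axis genes; open diamonds are the same genes scaled to spike-ins, the dashed line is the median of all features (0.10) and the dotted line that median with spike-in scaling (-0.45). Cish lies farthest from that median and has, with Socs2, the widest intervals; Igfbp3 is the 1 gene called lower.

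Both STAT5 genes, which encode the transcription factors that carry the growth hormone signal, were higher. Stat5a read 0.92 to 1.26 (median 1.09) in metformin plus CCl4 livers against 0.37, 0.29, 0.78 and 0.74 in CCl4 mice 1 to 4. The groups did not overlap. The means were 1.08 ± 0.15 in metformin plus CCl4 livers (SD, n = 6) and 0.54 ± 0.25 in CCl4 livers (SD, n = 4), 1.45-fold or 0.54 ± 0.13 in log2 units (95% interval 0.26 to 0.82; limma adjusted p = 0.00638). Stat5b, the more abundant form in liver and the one that drives sex-specific growth hormone targets there, read 3.28 to 3.81 (median 3.61) at its brightest probe in metformin plus CCl4 livers. In CCl4 mice 1 to 4 it read 2.93, 2.99, 3.31 and 3.15, and the groups overlapped only because metformin mouse 2 was just below CCl4 mouse 3. The Stat5b difference was 1.41-fold, or 0.50 ± 0.13 (95% interval 0.21 to 0.79; limma adjusted p = 0.0101).

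Stat5b also differed between its probes. Probe A_55_P2031045 read 2.73 to 3.27 in metformin plus CCl4 livers against 2.80, 3.03, 3.00 and 3.04 in CCl4 livers, a difference of 0.06 ± 0.13 (limma adjusted p = 0.723). Its ratio to the brightest Stat5b probe differed by -0.43 ± 0.08 (limma adjusted p = 0.00118) without overlap, so 1 of the 2 Stat5b probes showed the higher level and the other did not. The mean of both probes was not called (0.28, adjusted p = 0.0958). Under spike-in scaling neither gene was called and both signs turned (Stat5a -0.01, adjusted p = 0.973; Stat5b -0.05, adjusted p = 0.844), and within slide row 1 neither was called (adjusted p = 0.0903 for Stat5a and 0.204 for Stat5b).

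Cish showed the largest difference of the 10 genes. It encodes CIS, an SH2-domain protein that binds the activated growth hormone receptor and limits STAT5 docking. Its promoter is a textbook STAT5 target, and the window from 250 bases before to 50 after the start (RefSeq, GRCm38.p6, chr9:107296409-107296708, plus strand) is shown because it holds 2 copies of the STAT5-type motif TTCNNNGAA, in capitals.
Cish: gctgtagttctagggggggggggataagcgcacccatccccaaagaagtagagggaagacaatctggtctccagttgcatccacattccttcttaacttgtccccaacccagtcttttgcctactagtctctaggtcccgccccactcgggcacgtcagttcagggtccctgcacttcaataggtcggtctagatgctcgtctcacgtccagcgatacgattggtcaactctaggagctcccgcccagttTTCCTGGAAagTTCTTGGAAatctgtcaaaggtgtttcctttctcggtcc
The motif reads the same on both strands. The copies are TTCCTGGAA, whose first base is position 251 of the window, and TTCTTGGAA, whose first base is position 262. Neither therefore lies before the start. Of 32851 RefSeq mouse promoter windows of this length 8.30% held the motif at least once and 0.457% held it 2 or more times. A window was found for 9 of the 10 members, and 2 of those 9, Cish and Igfals, held the motif. Igfals, which did not pass the test, has a copy in 2 of its windows, chr17:24877594-24877893 and chr17:24877981-24878280 (both plus strand, first bases at positions 15 and 193), shown for comparison with Cish.
Igfals upstream window: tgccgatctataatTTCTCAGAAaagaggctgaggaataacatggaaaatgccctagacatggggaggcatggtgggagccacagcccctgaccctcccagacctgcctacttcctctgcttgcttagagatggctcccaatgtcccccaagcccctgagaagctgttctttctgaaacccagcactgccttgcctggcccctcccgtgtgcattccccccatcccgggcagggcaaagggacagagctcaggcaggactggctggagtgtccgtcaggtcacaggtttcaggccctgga
Igfals downstream window: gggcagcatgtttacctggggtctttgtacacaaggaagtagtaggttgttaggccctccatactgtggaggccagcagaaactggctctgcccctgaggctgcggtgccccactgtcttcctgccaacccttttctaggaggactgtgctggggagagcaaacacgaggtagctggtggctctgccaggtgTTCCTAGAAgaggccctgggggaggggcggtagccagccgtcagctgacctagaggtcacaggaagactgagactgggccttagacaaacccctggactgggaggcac
These matches are a description of sequence, and no binding was measured.

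In metformin plus CCl4 mice 1 to 6 Cish read 2.63, 4.37, 4.14, 1.998, 3.15 and 2.68. In CCl4 mice 1 to 4 it read -0.51, -1.64, -1.13 and 2.68. CCl4 mice 1, 2 and 3 were far below every metformin plus CCl4 mouse, and CCl4 mouse 4 lay within the metformin range. The mean was 3.16 ± 0.92 in metformin plus CCl4 livers (SD, n = 6) and -0.15 ± 1.95 in CCl4 livers (SD, n = 4), a 9.93-fold or 3.31 ± 0.79 log2 difference (95% interval 1.55 to 5.07; limma adjusted p = 0.00668). Over the 10 fits that each left out 1 mouse the difference ran from 2.82 (CCl4 mouse 2 left out, adjusted p = 0.0233) to 4.26 (CCl4 mouse 4 left out, adjusted p = 2.75e-04). Within slide row 1, where metformin mice 1 and 2 alone represent their group, the difference was 3.65 and the call was lost (adjusted p = 0.0721). With slide row as a covariate, which estimates the same contrast, the call held (adjusted p = 0.034).

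Socs2, whose loss in mice gives overgrowth through unchecked growth hormone signalling, had the same kind of spread but did not pass the test. It read 2.82, 3.02, 2.74, 1.47, 2.34 and 0.84 in metformin plus CCl4 mice 1 to 6, against -0.17, -0.47, 1.64 and 3.34 in CCl4 mice 1 to 4. CCl4 mouse 4 had the highest Socs2 value of all 10 livers, and CCl4 mice 1 and 2 had the lowest. The difference was 1.12 ± 0.73 (95% interval -0.50 to 2.73; limma adjusted p = 0.234), and the other Socs2 probes gave 1.03 and 0.90 (adjusted p = 0.298 and 0.307). Leaving out CCl4 mouse 4 raised it to 1.87 and past the threshold (adjusted p = 0.0278), whereas leaving out CCl4 mouse 2 lowered it to 0.60 (adjusted p = 0.541) and leaving out CCl4 mouse 1 to 0.70 (adjusted p = 0.494).

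Cish and Socs2 differed more between mice of the same group than most features did. The highest Cish value was 5.17-fold the lowest among metformin plus CCl4 mice and 20.0-fold among CCl4 mice. For Socs2 the same ratios were 4.51-fold and 14.1-fold. The Cish SD stood at percentile 98.1 of all features in the metformin plus CCl4 group and 99.9 in the CCl4 group, and that of Socs2 at 97.4 and 99.8. Ghr, in contrast, stood at percentile 4.44 in the metformin plus CCl4 group and 6.36 in the CCl4 group. The hour of killing and the time since feeding or the last dose were not given in the sources used here.

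**Figure D4:**
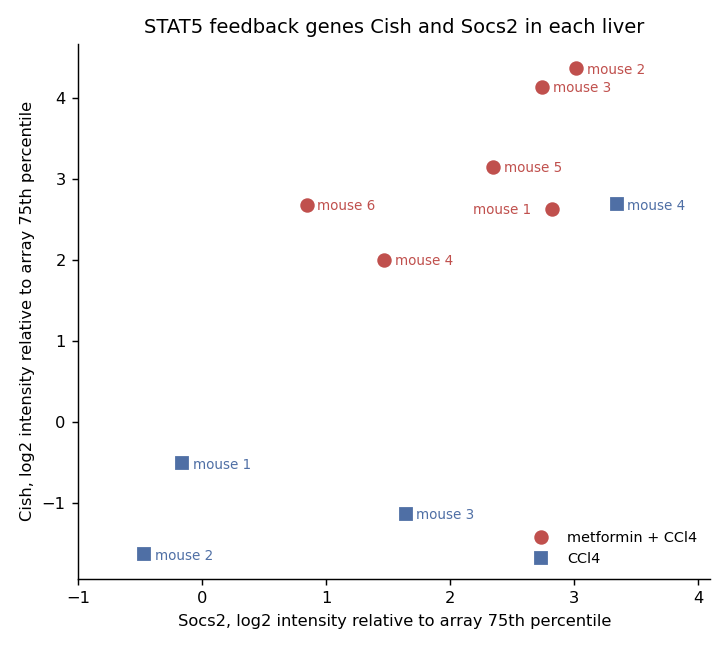
Cish against Socs2 in each liver, both as log2 intensity relative to the array's 75th percentile (metformin plus CCl4, n = 6, circles; CCl4, n = 4, squares; labels are mouse numbers). CCl4 mouse 4 lies within the metformin plus CCl4 range in Cish and above it in Socs2, and CCl4 mouse 3 is low in Cish and intermediate in Socs2.

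The genes whose pattern over the 10 livers was closest to a member were found by the root mean square difference of log2 values after removing each gene's mean. For Igf1 they were Gpi1 (0.051), Cox5b (0.062) and Ncoa1 (0.064), and for Ghr they were Naxe (0.050), Cox5b (0.053) and Ppp1r7 (0.055). For Socs2 the closest genes were Tchh (0.591), Tppp (0.738) and Nrep (0.742), and Cish came at 1.33, rank 8822 of 14522 genes. This measure counts the size of each change as well as its direction, and both genes varied widely. The rank therefore does not show whether Cish and Socs2 rose and fell together, which was not tested.

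Among 9 partners and brakes of the growth hormone receptor 1 was higher, 2 lower and 6 not called, with a median log2 fold change of 0.20. Of all named genes 27.7% were called higher and 19.7% lower, the background for the counts of this list and of those that follow. A count near those shares is not a result about its list. The kinase Jak2, which sits on the receptor, differed by 0.10 (limma adjusted p = 0.345). Sh2b1, an adaptor that enhances JAK2 activity, was lower by the largest margin of this list (-0.87 ± 0.11, adjusted p = 2.03e-04), at 3.54 to 3.83 in metformin plus CCl4 livers against 4.23 to 4.77 in CCl4 livers. Ptpn1, which encodes the phosphatase PTP1B that removes phosphate from JAK2 and the insulin receptor, was also lower (-0.53 ± 0.08, adjusted p = 7.35e-04). Ptpn11, encoding the phosphatase SHP2, was higher (0.43 ± 0.10, adjusted p = 0.00575), and with spike-in scaling it turned to -0.12. Socs1 and Socs3, the other cytokine feedback inhibitors in the list, differed by 1.98 (adjusted p = 0.0863) and 0.88 (adjusted p = 0.153), and the prolactin receptor gene Prlr by 1.27 (adjusted p = 0.0765).

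Of 13 other IGF ligands, receptors, binding proteins and proteases 9 were tested, of which 2 were higher, 5 lower and 2 not called (median -0.67). With spike-in scaling 0 were higher and 6 lower. Leaving out single mice gave 1 to 2 higher (1 without metformin mouse 3 or 5 or CCl4 mouse 1, 2 or 3) and 3 to 6 lower (3 without CCl4 mouse 3 or 4). Igf2, Pappa, Pappa2 and Stc2 did not pass the brightness filter. Igfbp1, a hepatocyte-made binding protein that insulin represses, was 3.85-fold lower (-1.95 ± 0.48, limma adjusted p = 0.00742), at 6.46 to 9.29 (median 7.60) in metformin plus CCl4 livers against 9.34, 9.91, 9.51 and 9.41 in CCl4 mice 1 to 4. Metformin mouse 5 was just under the lowest CCl4 mouse and the others were well below. The Igfbp1 call was lost with slide row in the fit (-1.94, adjusted p = 0.0539) and held within slide row 1 alone. Htra1, a secreted protease, was 2.95-fold lower (-1.56 ± 0.19, adjusted p = 1.81e-04). Igfbp7 was well above background in 0 of 6 metformin plus CCl4 livers and 3 of 4 CCl4 livers. It was at least 1.31-fold lower, a bound taken against the lowest signal well above background. It passed the brightness filter only through the CCl4 group. Its call, 1 of the 5 lower (fitted log2 difference -1.37, limma adjusted p = 0.0117), is therefore not independent of the filter. That call was lost with normexp background correction (fitted log2 difference -0.20, adjusted p = 0.0927) and once slide row entered the fit (adjusted p = 0.194), and Igfbp7 did not pass the filter without CCl4 mouse 1, 3 or 4. The insulin receptor gene Insr (0.53 ± 0.14, adjusted p = 0.0110) and Igf2r, the IGF-2 clearance receptor (0.30 ± 0.10, adjusted p = 0.0277), were higher, and with spike-in scaling they turned to -0.02 and -0.25. The Igf2r call was also lost without metformin mouse 3 or 5 or CCl4 mouse 1, 2 or 3 (0.23 to 0.39 leaving out single mice).

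Of 6 adaptors of the IGF-1 receptor 1 was higher, 1 lower and 4 not called (median 0.08). Irs1, the docking protein shared by the insulin and IGF-1 receptors, was higher (0.96 ± 0.25, limma adjusted p = 0.0104), a call lost with spike-in scaling (0.41, adjusted p = 0.328). Grb10, an adaptor that inhibits both receptors, was lower (-1.59 ± 0.48, adjusted p = 0.0194). That call was lost without CCl4 mouse 4, which had the highest Grb10 value (-1.17 without it, adjusted p = 0.0516), with slide row in the fit (-1.34, adjusted p = 0.150) and within slide row 1 (adjusted p = 0.239).

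In rodent liver the male pattern of growth hormone pulses maintains one set of genes and represses another. Of 19 male-biased genes 17 were tested (all but Mup7 and Selenbp2), 1 was higher, 4 lower and 12 not called (median -0.17). The number lower is near the 19.7% of all named genes called lower. With spike-in scaling 0 were higher and 13 lower, and leaving out single mice gave 0 to 1 higher and 4 to 6 lower, with 6 lower without metformin mouse 4 or 6. The cytochromes P450 Cyp4a12a (-0.80 ± 0.13, limma adjusted p = 6.69e-04), Cyp2d9 (-0.65 ± 0.12, adjusted p = 0.00154) and Cyp4a12b (-0.54 ± 0.14, adjusted p = 0.0102) were lower. The complement regulator gene Susd4 was higher (1.03 ± 0.31, adjusted p = 0.0205), and its call was lost without CCl4 mouse 2 (0.87) or CCl4 mouse 3. Major urinary protein genes Mup1, Mup3, Mup20 and Mup21 were not called, with differences between -0.20 and 0.20. The Mup, Cyp4a12, Cyp2d and Cyp3a families hold near-identical copies, so their probes may read more than 1 gene.

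Of 21 female-biased genes 20 had a probe and 12 passed the brightness filter, of which 5 were higher, 1 lower and 6 not called (median 0.58). The background was 27.7% of named genes called higher and 19.7% lower. The number higher was 0 with spike-in scaling, with 3 lower. Leaving out single mice it ran from 2 (without CCl4 mouse 2) to 9 (without metformin mouse 4), with 8 without metformin mouse 6 and 3 without metformin mouse 1, 3 or 5 or CCl4 mouse 4. Vldlr, a lipoprotein receptor gene, was higher by 1.92 ± 0.56 (limma adjusted p = 0.0174), at -2.87 to 0.35 in metformin plus CCl4 livers against -3.27 to -2.12 in CCl4 livers. Abcd2, a peroxisomal fatty acid transporter gene, was higher by 1.68 ± 0.56 (adjusted p = 0.0311), although it was well above background in 5 of 6 metformin plus CCl4 livers and 1 of 4 CCl4 livers. Cyp17a1, a steroid hydroxylase gene, was higher by 0.998 ± 0.26 (adjusted p = 0.0109), and Cyp3a16 was lower (-0.97 ± 0.15, adjusted p = 5.25e-04). With spike-in scaling the calls of Vldlr, Abcd2 and Cyp17a1 were lost, and that of Abcd2 also without metformin mouse 1, 2, 3 or 5 or CCl4 mouse 2 or 4 (1.45 to 2.06 leaving out single mice), with normexp background correction (0.33, adjusted p = 0.0850) and with no filter on dim probes (adjusted p = 0.0524). Most CCl4 livers were below the level at which Abcd2 is measured, and it passed the brightness filter only through the metformin plus CCl4 group. Its fold is therefore uncertain and its call is not independent of the filter.

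**Figure D5:**
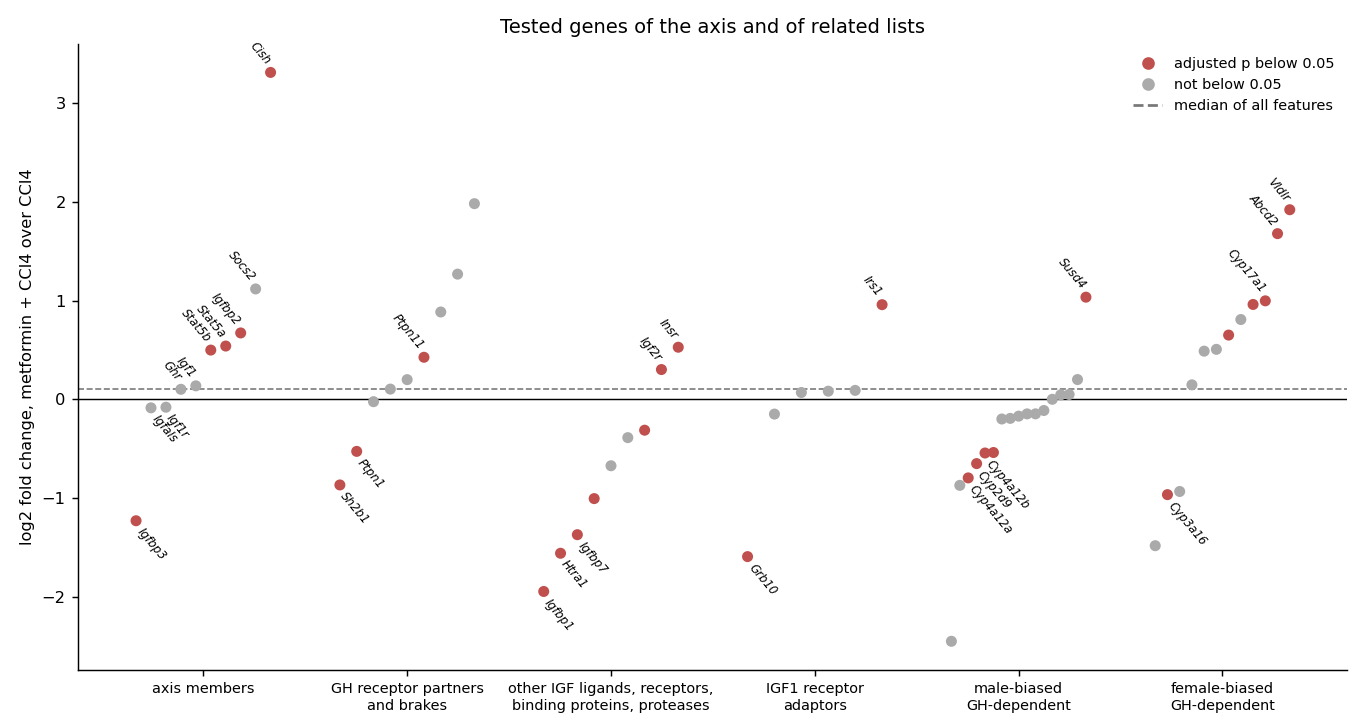
Log2 fold change, metformin plus CCl4 over CCl4, of every tested gene in the axis and in the 5 related lists; red points passed an adjusted p of 0.05, grey points did not, the dashed line is the median of all features, and Igfbp7 is drawn at its fitted value although 0 of 6 metformin plus CCl4 livers were well above background. Labelled genes are the members and those named in the text; Cish is the highest point and Igfbp1 the lowest called one.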

How the data were processed

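Single-channel (Cy3) Agilent whole-genome arrays measured total liver RNA from 10 TG221 mice, 1 array per mouse. The intensity of each spot, gProcessedSignal, was computed by the authors' Agilent Feature Extraction software (version 10.7.3.1, per the file headers), which subtracts background. The authors' deposited table of processed log2 values holds 4595 probes; its normalization and centring are not given in the sources used here.

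The log2 intensities were centred on the 75th percentile of non-control spots, array by array. Irregular spots were left out, spots of a probe averaged, and probes kept when well above background on at least 75% of a group's arrays. A gene was its brightest kept probe. Symbols came from RefSeq through the arrays' transcript accessions. limma 3.58.1 in R 4.3.3 (lmFit, eBayes) tested 22178 features with Benjamini-Hochberg adjustment, and calls were made below 0.05. Probes and probe ratios were fitted likewise. The fit was tested on simulated data.

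In each related list, up to 3 called genes per direction with the largest changes are named. The others enter the counts, and 1 gene of the lists is not reported here. Members and lists were chosen with earlier results of these data known. The labels number the mice separately in each group.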

Additional observations from a re-analysis of the deposited data

Results flagged for a closer look

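In 4 of 72 groups checked, a single liver stood apart from the rest of its group by Dixon's test, a rule by which chance picks out about 1 group in 20. No axis member was among them. Igfbp7 was -3.53 in CCl4 mouse 3 and -4.44 to -4.31 in the other CCl4 mice. Grb10 was -0.018 in CCl4 mouse 4 and -1.84 to -1.56 in the others. Cyp4a12b was 6.82 in CCl4 mouse 2 and 6.59 to 6.60 in the others. Vldlr was -2.12 in CCl4 mouse 3 and -3.27 to -3.17 in the others.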

How the results depend on the processing

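The number of arrays, 6 against 4, limits the precision. Slide, scan and treatment coincided. Within a slide, row was tried and column was not. Both row settings rest on metformin mice 1 and 2 against the CCl4 mice. For a call lost there, row and the smaller number of mice cannot be told apart. The cause of each change below was not tested. With 4 members called higher and 1 lower, scaling to spike-ins gave 1 higher and 3 lower, slide row as a covariate 2 and 0, slide row 1 only 1 higher, and the replicate block 2 higher. Leaving out single mice gave 4 to 5 higher and 1 lower. Named genes called were 6885, against 4216 in slide row 1 only, 4678 with the replicate block and 5891 to 6645 leaving out single mice. Of the calls, 58.5% were higher, against 50.4% with median scaling, 52.3% with quantile normalization and 7.73% with spike-in scaling. Slide row as a covariate and slide row 1 only both also ended the calls of Ptpn11, Igf2r, Susd4 and Cyp17a1. Slide row 1 only ended that of Cyp2d9, spike-ins that of Susd4, and median scaling those of Insr and Igf2r. The Igf2r call was lost too with quantile normalization (adjusted p = 0.0672) and with no filter on dim probes (adjusted p = 0.0614).

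Signs turned as follows. With spike-ins Ghr was -0.45, Igf1 -0.41, Stat5a -0.011, Stat5b -0.052, Ptpn11 -0.12, Igf2r -0.25 and Insr -0.023, with -0.49 for Stat5b probe A_55_P2031045 (adjusted p = 0.0440), -0.0065 for Igfbp2 probe A_55_P2056729 and -0.39 for Igf1 probe A_55_P2085984. With quantile normalization Ghr was -0.041, Igf1 -0.011 and that Stat5b probe -0.025, and with median scaling the probe was -0.0020. The mean of probes gave Ghr -0.024. Normexp correction gave Igfals 0.027 and, for the ratio of Igf1 probe A_55_P2085984 to the brightest, -0.11. Slide row as a covariate and slide row 1 only each gave Igfals 0.0012, Igf1r 0.0022 and the Stat5b probe -0.14. Leaving out single mice, Igfals ranged from -0.21 (without CCl4 mouse 3) to 0.022 (without CCl4 mouse 4) and Igf1r from -0.18 (without CCl4 mouse 2) to 0.014 (without CCl4 mouse 3).

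Mouse numbers did not pair the groups: deviations of same-numbered mice correlated at -0.143, -0.125, 0.0855 and -0.00374. With the replicate block Igf1r was 0.023 and the Stat5b probe -0.047, while Cish (3.43, adjusted p = 0.0710) and Stat5b (0.42, adjusted p = 0.0605) were not called. Nor were Ptpn11, Igf2r, Irs1, Grb10, Cyp17a1, Igf1 probe A_55_P2031636, Igfbp2 probe A_55_P2056729 or the ratio of Socs2 probe A_55_P1992838 to the brightest (adjusted p of 0.0508 for Irs1 to 0.142 for Igf2r).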
